A study of Mus musculus with 10 samples.

Results

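The cytosolic ribosomal protein genes encode the proteins that, with the ribosomal RNAs, build the large and the small subunit of the ribosome in the cytosol. They were taken by symbol from the deposited tables: *Rpl* or *Rps* followed by a number, an optional suffix letter and an optional final digit. *Rplp0*, *Rplp1*, *Rplp2* and *Rpsa* were included as well. The rule found 84 of 18292 gene symbols. Of these, 77 are called canonical here, 46 of the large and 31 of the small subunit, and 7 are copies of another member (paralogs): *Rpl3l*, *Rpl6l*, *Rpl7l1*, *Rpl10l*, *Rpl22l1*, *Rpl39l* and *Rps27l*. *Rps4l* and *Rps4y2* were on the paralog list but not analysed here.

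Messenger RNAs were counted in single microglia, the resident macrophages of the brain, with the 10X Genomics 3' kit, which tags each captured molecule with a unique molecular identifier (UMI). Each of the 5 groups held 2 libraries of C57BL/6 mouse cells sorted as live, CD11b high and CD45 intermediate. Adult microglia came straight from adult brain. Slice microglia came from cultured brain slices of neonatal pups after 1 day, 1 week or 3 weeks, and *in vitro* microglia from mixed glial cultures of neonatal cortex after 3 weeks. The labels name no transgene, the slice medium held PDGF by the study's methods, and several slices were pooled where a sample needed it. Age and culture therefore cannot be told apart, because the adult cells were never cultured and the cultured cells were neonatal. The labels do not say that replicates were separate animals or cultures, so each p-value measures the spread between libraries.

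After the cell filters the libraries held 61 to 3799 cells and 385373 to 39689540 UMIs, of which 63335 to 5155266 were members' UMIs. Any 2 libraries shared at most 23 cell barcodes. The 10 microglia markers were detected in every library. Their summed level, in UMIs scaled to a common library total (CPM), was 48530 and 49430 in adult, 8184 to 9170 in slice 1 day and 14800 to 28980 in the other groups. Neutrophil genes, 9 on the list, summed to at most 8.395 CPM in adult, *in vitro* and slice 3 weeks microglia (3 to 7 of 9 detected), but to 7660 and 22420 in slice 1 day (9 of 9) and 40260 and 955 in slice 1 week (9 and 4 of 9). At least 2 UMIs of that list were found in 84.75% and 100% of slice 1 day cells and in 100% and 11.5% of slice 1 week cells. Erythroid genes stood at 1852 CPM in adult replicate 1 and 3463 in slice 1 day replicate 1, and at 1.02 or less in the other 8 libraries. The 5 border macrophage genes reached 2104 and 2233 CPM *in vitro*, against 5.59 and 10.3 in adult and 28.8 to 288 in the slices, and the 7 monocyte genes 192 and 394.8 in slice 1 day and 884.6 and 33.7 in slice 1 week, against 5.15 and 8.23 in adult, 28.4 and 38.2 *in vitro* and 8.06 and 17.3 in slice 3 weeks. At least 2 UMIs of the monocyte list were found in 14.1% and 31.9% of slice 1 day cells and in 34.5% and 1.64% of slice 1 week cells. For the border macrophage list these were 98.1% and 98.6% of *in vitro* cells, 0.316% and 0.0851% of adult cells and 2.97% to 21.6% of slice cells. Lymphocyte genes summed to 69.0 and 77.2 CPM in adult, 5.42 and 8.10 *in vitro* and 27.4 to 61.1 in the slices, and neural and vascular genes to 44.7 and 45.6 in adult, 24.8 and 29.6 *in vitro* and 50.1 to 120.3 in the slices. The part of these 4 lists in the results was not tested. All 10 proliferation genes were detected in every library, with 33.5 and 38.8 CPM in adult and 198 to 491.5 in the other 4 groups. From the summed levels alone, fewer cells of a type and less RNA per cell cannot be told apart.

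Most ribosomal proteins are needed in equal numbers in each ribosome, and cells usually adjust their messenger RNAs together. Many of these messengers begin with a C followed by an unbroken stretch of pyrimidines, the 5' terminal oligopyrimidine (TOP) motif, through which their translation follows the nutrient-sensing kinase mTOR. Some members have extra-ribosomal roles or paralogs that are used in particular tissues, such as *Rpl3l* in heart and skeletal muscle and *Rpl10l* and *Rpl39l* in testis.

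The 30 bases around the annotated RefSeq transcription start (GRCm38.p6, 15 on each side) were searched on the sense strand for a C followed by at least 5 pyrimidines (C or T). Windows were matched for 63 of the 84 members. The run was present in 33 of 57 canonical members, or 57.9%, against 25.5% of 27025 genes. It was present in 3 of 6 paralogs. The windows shown belong to members whose values carry the results and, for *Rpl7a*, to a long unbroken run. The run is in capitals, and members without one are in lower case throughout.

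Rpl7a: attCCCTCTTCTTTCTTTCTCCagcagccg
Rps6: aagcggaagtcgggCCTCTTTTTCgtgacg
Rpl15: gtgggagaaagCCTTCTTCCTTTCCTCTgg
Rps9: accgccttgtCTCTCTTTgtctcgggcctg
Rps2: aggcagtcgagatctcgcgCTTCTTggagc
Rps26: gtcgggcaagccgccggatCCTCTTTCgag
Rpsa: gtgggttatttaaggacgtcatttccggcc
Rps27: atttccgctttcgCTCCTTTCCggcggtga
Rps27l: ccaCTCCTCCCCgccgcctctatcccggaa
Rpl22: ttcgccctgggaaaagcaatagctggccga
Rpl22l1: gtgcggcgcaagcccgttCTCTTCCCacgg
Rpl7l1: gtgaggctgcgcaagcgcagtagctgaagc
Rpl3l: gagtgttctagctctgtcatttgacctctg

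In that order they lie at chr2:26910792-26910821 (plus strand), chr4:86857353-86857382 (minus), chr14:18270972-18271001 (minus), chr7:3704026-3704055 (plus), chr17:24720048-24720077 (plus), chr10:128626492-128626521 (minus), chr9:120127751-120127780 (plus), chr3:90213634-90213663 (minus), chr9:66946071-66946100 (plus), chr4:152325711-152325740 (plus), chr3:28805493-28805522 (plus), chr17:46782642-46782671 (minus) and chr17:24727811-24727840 (plus). The runs of *Rpl7a* and *Rpl15* are 19 and 17 bases long. *Rps27* and its paralog *Rps27l* both carry a run, *Rpl22* carries none while its paralog *Rpl22l1* does, and *Rpl7l1* carries none. A match describes letters only. The median log2 fold changes against adult of canonical members with and without the run were 1.55 (n = 33) and 1.58 (n = 24) in slice 1 day, 1.296 and 1.33 *in vitro*, 1.58 and 1.55 in slice 1 week, and 1.65 and 1.59 in slice 3 weeks. Members with the run thus had the lower median in 2 comparisons and the higher in 2.

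The whole canonical family was lower in adult microglia than in any cultured group. For all 77 canonical members both adult libraries lay below all 8 other libraries, in CPM after edgeR's TMM scaling of the library totals, the scale of every gene level that follows. The same count was not made over all genes, so it has no background share. *Rpl7*, a large subunit protein, gave 588 and 427 CPM in adult, 1022 and 1114 *in vitro*, 1170 and 1278 in slice 1 day, 1264 and 1067 in slice 1 week, and 1095 and 1507 in slice 3 weeks. *Rps6*, the small subunit protein that the S6 kinases phosphorylate, gave 1019 and 890.1 CPM in adult and 1687 to 3470 in the other 8 libraries. Both genes had adult values clear of the rest. For *Rpl7* the *in vitro* libraries lay below those of slice 1 day, and the other cultured groups overlapped. For *Rps6* the *in vitro* libraries lay below the 6 slice libraries.

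A member was called where edgeR's quasi-likelihood test gave a Benjamini-Hochberg adjusted p under 0.05 over 12157 genes and a fold above 1.5. Against adult, 75 of 77 canonical members were higher *in vitro*, where 22.4% of all genes were higher and 28.5% lower. In slice 1 day 75 were higher (24.9% of all genes higher, 25.3% lower), in slice 1 week 77 (15% and 13.6%) and in slice 3 weeks 77 (17.9% and 17.5%), and none was lower in any of the 4, at an unadjusted p under 0.05 (0) or by DESeq2 (0) either. The median fold was 2.46 *in vitro* and 2.96, 2.95 and 3.11 in the slices at 1 day, 1 week and 3 weeks, while the median log2 fold change of all genes lay between -0.11 and -0.03. The 4 comparisons use the same 2 adult libraries. Scaling by library size alone moved the median of all genes to between -0.42 and -0.18 and that of the canonical members to between 1.00 and 1.44. An alternative chosen after seeing the data left out neutrophil-rich and erythroid-rich cells, those with at least 1% of UMIs in either list. It gave 75, 75, 77 and 77 calls, and leaving out proliferating cells gave 76, 75, 77 and 77. Neutrophil UMIs remained in most of the other cells of slice 1 day and of slice 1 week replicate 1. With a term for the code in the library titles, also chosen after seeing the data, 33 rather than 75 were higher *in vitro*, with a median log2 fold change of 0.559 in place of 1.301, and 76, 77 and 75 in the slice groups.

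**Figure D1:**
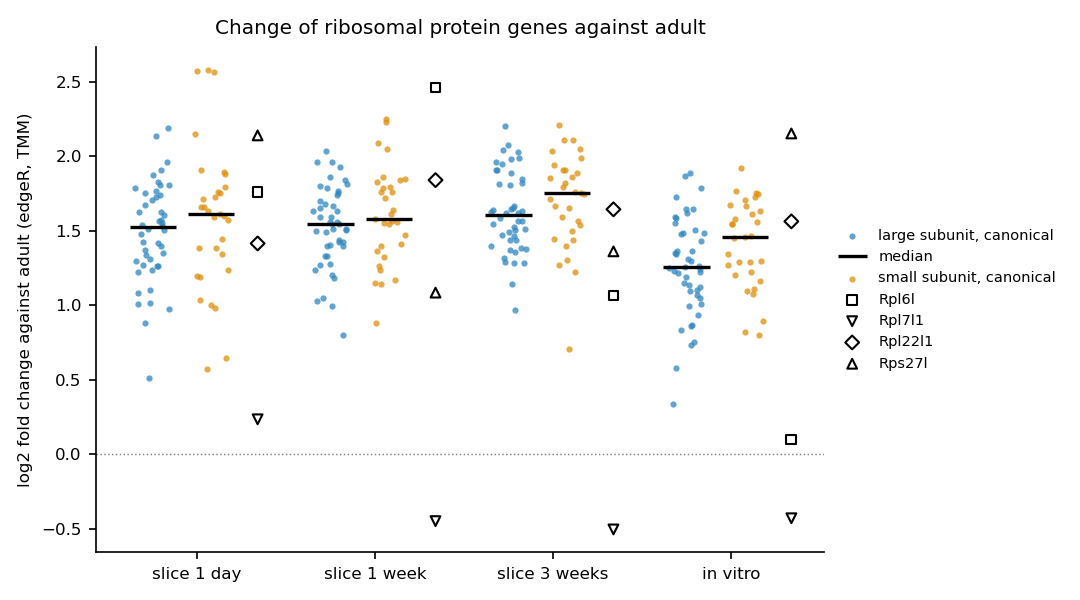
The log2 fold change against adult (edgeR, TMM scaling) is plotted for each canonical member, large subunit in blue and small in orange, with the median of each as a black line, and for 4 paralogs as open symbols. Canonical members lie between 0.34 and 2.58 in all 4 groups, and *Rpl7l1* lies at 0.24 or below.

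Members differed in how far they rose. Log2 fold changes ran from 0.34 (*Rpl15*) to 1.92 (*Rps2*) *in vitro*, up to 2.58 (*Rps2*) in slice 1 day, from 0.80 (*Rplp1*) to 2.25 (*Rps26*) in slice 1 week and from 0.71 (*Rps9*) to 2.21 (*Rpsa*) in slice 3 weeks. Within 0.5 of the family's median lay 69, 61, 69 and 73 of the 77, the fewest in slice 1 day. *Rpl23* of the large subunit was also among the 3 highest *in vitro* (1.87) and in slice 3 weeks (2.21), and *Rps28* of the small subunit in slice 1 week (2.09). Among the members not called were *Rpl15* of the large subunit *in vitro* (adjusted p = 0.151, edgeR) and *Rps9* of the small subunit in slice 1 day (adjusted p = 0.0141, fold 1.49, edgeR).

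To read each member against the family, its UMIs were divided by the summed UMIs of the 77 canonical members in the same library; this portion is given per 10000. Most portions were steady. The highest of the 10 libraries was a median of 1.41 times the lowest, 52 members stayed under 1.5 times, 18 between 1.5 and 2 times, and 7 at 2 times or more. *Rpl6*, a large subunit protein, varied least, from 132 to 147 (1.11 times). Those that varied most included *Rpl38*, *Rps9*, *Rps2*, *Rpsa*, *Rps26* and *Rpl15*, the last 2.58 times. Between the 2 replicates of a group the median fold was 1.02 to 1.08, and the only canonical portion that differed by more than 1.5 times was that of *Rpl15* in slice 3 weeks.

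A departure from the common change was tested in edgeR with each library scaled by the median of ratios over the canonical members, with the same thresholds. Under this scaling genes outside the family fall against adult, so its background is uneven. Relative to the family, 2 canonical members were higher and 3 lower *in vitro* (6.74% of all genes higher, 71.3% lower). Slice 1 day had 6 higher and 4 lower (7.04% and 72.2%), slice 1 week 2 and 2 (5.59% and 68.5%), and slice 3 weeks 0 and 2 (4.24% and 78.6%). For the 0 higher in slice 3 weeks, 4 were higher at an unadjusted p under 0.05 and DESeq2 called 0. Single libraries moved these counts: *in vitro* 8 departed without adult replicate 1, 3 without adult replicate 2 and 2 and 1 without *in vitro* replicate 1 and 2. In slice 1 day 6 departed without slice 1 day replicate 1, in slice 1 week 8 without adult replicate 1 and 2 without slice 1 week replicate 2, and in slice 3 weeks 5 without slice 3 weeks replicate 1. By subunit, the large subunit gave 1 higher and 3 lower *in vitro* and 2 and 2 in slice 1 day, and the small subunit 1 and 0 *in vitro* and 4 and 2 in slice 1 day.

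*Rps2*, *Rps26* and *Rpsa* rose beyond the family, most of all in slice 1 day. All 3 encode small subunit proteins, and the product of *Rpsa* is also known as the laminin receptor. The portion of *Rps2* was 83.3 and 82.4 in adult, 127 and 131 *in vitro*, 182 and 182 in slice 1 day, 118 and 124 in slice 1 week, and 119 and 106 in slice 3 weeks. Both slice 1 day values were above every other library and both adult values below. Relative to the family *Rps2* was 1.08 ± 0.20 log2 units higher in slice 1 day than in adult (SE, n = 2 and 2, adjusted p = 1.6e-04, edgeR).

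*Rps26* went from 52.9 and 46.2 in adult to 67.3 and 70.3 *in vitro*, 109 and 108 in slice 1 day, 80.1 and 87.4 in slice 1 week, and 69.3 and 70.1 in slice 3 weeks. *Rpsa* went from 45.8 and 44.5 to 61.2 and 65.1, 95.03 and 103, 77.1 and 72.5, and 72.5 and 64.5 in the same order. For both genes adult was below and slice 1 day above all other libraries. Slice 1 week had the next highest mean. Their relative changes in slice 1 day were 1.08 ± 0.22 (adjusted p = 3.3e-04) and 1.07 ± 0.22 (3.9e-04), and in slice 1 week 0.70 ± 0.22 (0.00862) and 0.68 ± 0.22 (0.012), all by edgeR. The slice 1 day calls of *Rps2*, *Rps26* and *Rpsa* held under all 20 alternatives tried, whereas in slice 1 week *Rps26* was not called without slice 1 week replicate 2 (lowest value over the alternatives 0.64) nor *Rpsa* without slice 1 week replicate 1 (0.62).

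*Rpl38* and *Rpl12* of the large subunit also departed upward in slice 1 day. *Rpl38*, which in mouse embryos is needed for the translation of Hox messengers, had portions of 87.7 and 66.9 in adult, 134 and 129 in slice 1 day, 117 and 121 *in vitro*, and 97.8 to 106 in the other 2 slice groups. The 2 adult libraries lay apart from each other but below all the rest. Its relative change was 0.72 in slice 1 day (adjusted p = 0.00585, edgeR) and 0.59 *in vitro* (0.0188). That of *Rpl12* in slice 1 day was 0.66 (0.0185), a call lost under 5 of the 20 alternatives: without adult replicate 2, *in vitro* replicate 2 or either slice 1 day library, and in cells of 3000 to 8000 UMIs (0.46 at the lowest). *Rpl38* was not called in slice 1 day without adult replicate 2 or without slice 1 day replicate 1 (0.57 at the lowest). *In vitro* the calls of *Rpl38* and *Rps2* (0.60, adjusted p = 0.0122, edgeR) were each lost without either *in vitro* library, without proliferating cells and in cells of 3000 to 8000 UMIs, and the lowest values over the alternatives were 0.39 and 0.33. That of *Rpl38* was also lost without adult replicate 2, slice 1 week replicate 1 or slice 3 weeks replicate 2, and with a term for the code in the library titles that is described with *Rpl15*.

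**Figure D2:**
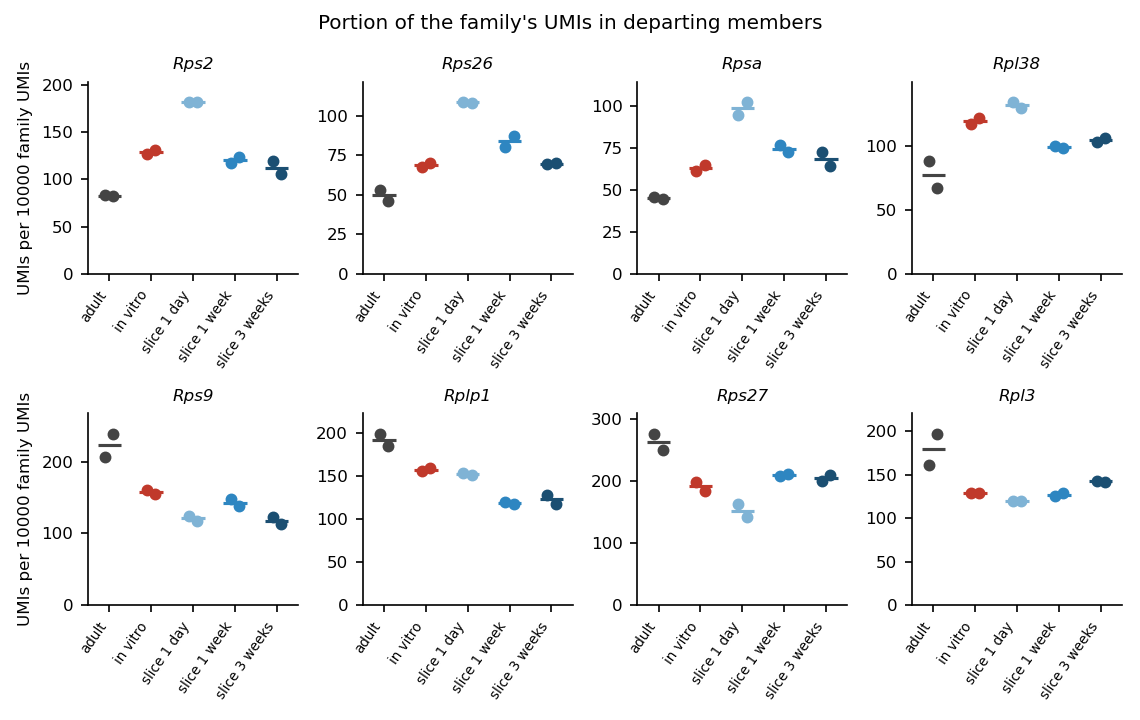
Each dot is 1 library's UMIs of the member per 10000 UMIs of the canonical family, and each line is the mean of the 2 libraries of a group. *Rps2*, *Rps26*, *Rpsa* and *Rpl38* are lowest in adult and highest in slice 1 day, and *Rps9*, *Rplp1*, *Rps27* and *Rpl3* are highest in adult.

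*Rps9*, *Rps27* and *Rpl3* rose less than the family in slice 1 day. *Rps9* had portions of 207 and 239 in adult, 160.4 and 155 *in vitro*, 124 and 117 in slice 1 day, 148 and 138 in slice 1 week, and 123 and 112 in slice 3 weeks (112.5 in the latter). The adult libraries were above all others.

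Relative to the family, *Rps9* changed by -0.94 in slice 1 day (adjusted p = 5e-04, edgeR), -0.69 in slice 1 week (0.00541) and -0.95 in slice 3 weeks (4e-04), of which the slice 1 week call was lost without adult replicate 2 or slice 1 week replicate 2 (-0.56 at the nearest to 0). *Rps9* was the one canonical member that departed in 3 of the 4 comparisons and downward in each. *In vitro* its relative change of -0.54 was just inside a fold of 1.5 and was not called.

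*Rps27*, a zinc-finger protein of the small subunit, had portions of 277 and 249.8 in adult and 163 and 142 in slice 1 day, with 185 to 212 in the other 6 libraries. Its relative change in slice 1 day was -0.84 ± 0.19 (adjusted p = 7.2e-04, edgeR). *Rpl3*, which lies close to the peptidyl transferase centre, had 161 and 197 in adult against 119.6 and 119.4 in slice 1 day, a relative change of -0.64 (0.00846). That call was lost without adult replicate 2 or either slice 1 day library and with summed member UMIs as library size (-0.45 at the nearest to 0). *Rpl13* departed downward *in vitro* (-0.61, adjusted p = 0.00788), with 249 and 319 in adult and 193 and 189 *in vitro*. It was not called without adult replicate 2 or either *in vitro* library, in cells of 3000 to 8000 UMIs, with summed member UMIs as library size or with the title code as a term (-0.39 at the nearest to 0). The changes of *Rpl13* in slice 1 day and 1 week were -0.52 and -0.54 and were not called, but with the title code they were -0.70 and -0.72 and were called.

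The 3 proteins of the ribosomal stalk, the lateral arm that recruits the translation factors, did not move alike. *Rplp1* had portions of 199.6 and 185 in adult, 156 and 159 *in vitro*, 154 and 151 in slice 1 day, 119.6 and 118 in slice 1 week, and 128 and 118 in slice 3 weeks. All adult values were above all others, and slice 1 week and 3 weeks were below slice 1 day. It changed relative to the family by -0.75 ± 0.19 in slice 1 week (adjusted p = 0.00273, edgeR) and -0.68 ± 0.19 in slice 3 weeks (0.00416), under all 20 alternatives. Its partner *Rplp2* stayed between 113 and 131 in all 10 libraries, with relative changes of -0.13 to 0.04, and *Rplp0*, the base of the stalk, between 135 and 186 with -0.23 to 0.10. No departure was called for either. The difference between *Rplp1* and its partners was not tested. *Rps27a*, translated as a fusion of ubiquitin and the ribosomal protein, had portions of 154 and 145 in adult, 202 and 211 in slice 1 day and 166 to 196 in the other 6, with relative changes of 0.15 to 0.41 that were not called.

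Large subunit UMIs per small subunit UMI were 1.37 and 1.41 in adult, 1.292 and 1.302 *in vitro*, and 1.34 to 1.36 in the 6 slice libraries (1.335 to 1.359). The adult libraries were above all others and the *in vitro* libraries below all others, and the 3 slice groups overlapped. No test was run: for 2 against 2 libraries the smallest exact two-sided permutation p is 0.333. The median log2 fold change of large and small subunit members was 1.25 and 1.46 *in vitro*, 1.52 and 1.61 in slice 1 day, 1.55 and 1.58 in slice 1 week, and 1.604 and 1.76 in slice 3 weeks. The small subunit median was the higher in each.

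Of the 7 paralogs 6 were tested, and against adult 3 were called higher in level *in vitro* (22.4% of all genes), 4 in slice 1 day (24.9%), 4 in slice 1 week (15%) and 3 in slice 3 weeks (17.9%). Counts of a paralog and its parent come from 3' ends without regard to length. *Rps27l*, a target of p53, gave 170 and 156 CPM in adult, 708 and 742 *in vitro*, 695 and 741 in slice 1 day, 360 and 330 in slice 1 week (359.7 and 330.1), and 418 and 419 in slice 3 weeks. *In vitro* and slice 1 day microglia were clear of the other 3 groups, and adult was below all. Per 100 UMIs of *Rps27*, *Rps27l* had 9.71 and 12.6 in adult, 26.97 and 28.1 *in vitro*, 28.1 and 33.7 in slice 1 day, 10.8 and 9.75 in slice 1 week, and 14.96 and 9.50 in slice 3 weeks.

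The level of *Rps27l* was 4.45-fold higher *in vitro* than in adult (adjusted p = 7.6e-07) and 4.41-fold higher in slice 1 day (2e-06). It was 1.73-fold higher *in vitro* than in slice 3 weeks (0.00123), a level call lost in cells of 3000 to 8000 UMIs (log2 0.54), and lower in slice 3 weeks than in slice 1 day (log2 change -0.78, 0.00222), all by edgeR. Relative to the family it was higher by 0.82 *in vitro* (0.0109), 0.62 in slice 1 day (0.0415) and 1.07 *in vitro* against slice 3 weeks (0.00858). The first was lost without adult replicate 1 or either *in vitro* library and in cells of 3000 to 8000 UMIs (0.56 at the lowest), and the second under 12 of the 20 alternatives (0.50 at the lowest). The third was lost without either *in vitro* library (1.04 and 1.10), where its adjusted p was 0.0792 and 0.0628, and in cells of 3000 to 8000 UMIs (0.85, 0.0753). From slice 1 day to slice 3 weeks it changed by -0.88 relative to the family (adjusted p = 0.0405, edgeR), a call that 9 of the 20 alternatives kept.

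*Rpl7l1*, the mammalian relative of a yeast assembly factor of the large subunit, did not share the rise. Its level was 120 and 128 CPM in adult (120.0 and 128.3), 96.1 and 88.5 *in vitro*, 146 and 146 in slice 1 day, 85.0 and 99.8 in slice 1 week, and 94.9 and 80.4 in slice 3 weeks. Slice 1 day was the highest, and the other 3 cultured groups were below adult. No level change against adult was called, and from slice 1 day to slice 3 weeks it fell (log2 change -0.74, adjusted p = 0.00373, edgeR), a call lost with the title code as a term (-0.53). Set against the family it changed by -1.78 ± 0.32 *in vitro* (adjusted p = 1.4e-04), -1.29 ± 0.32 in slice 1 day (0.00166), -2.03 ± 0.35 in slice 1 week (1.3e-04) and -2.11 ± 0.33 in slice 3 weeks (3.8e-05, edgeR). Per 100 UMIs of *Rpl7* it had 20.4 and 30.1 in adult and 5.34 to 12.5 in the other 8 libraries. With the title code described below as a term in the fit, the *in vitro* change was -0.67 and not called. The other 3 held under all 20 alternatives.

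*Rpl22l1* moved with the family. It gave 187 and 171 CPM in adult, 464 and 596 *in vitro*, 483 and 473 in slice 1 day, 562 and 727 in slice 1 week, and 446 and 675 in slice 3 weeks, higher in all 8 cultured libraries. Its folds against adult were 2.96 *in vitro* and 2.67, 3.58 and 3.13 in slices of 1 day, 1 week and 3 weeks (adjusted p from 1.7e-04 to 3.7e-04, edgeR). Its changes relative to the family were -0.10 to 0.27 with no call. Per 100 UMIs of *Rpl22* it had 73.1 and 92.4 in adult (73.05 and 92.35), 77.1 and 91.6 *in vitro*, 66.3 and 61.0 in slice 1 day, 83.3 and 104 in slice 1 week, and 89.4 and 85.1 in slice 3 weeks. Slice 1 day was below the other 4 groups, whose values overlapped.

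**Figure D3:**
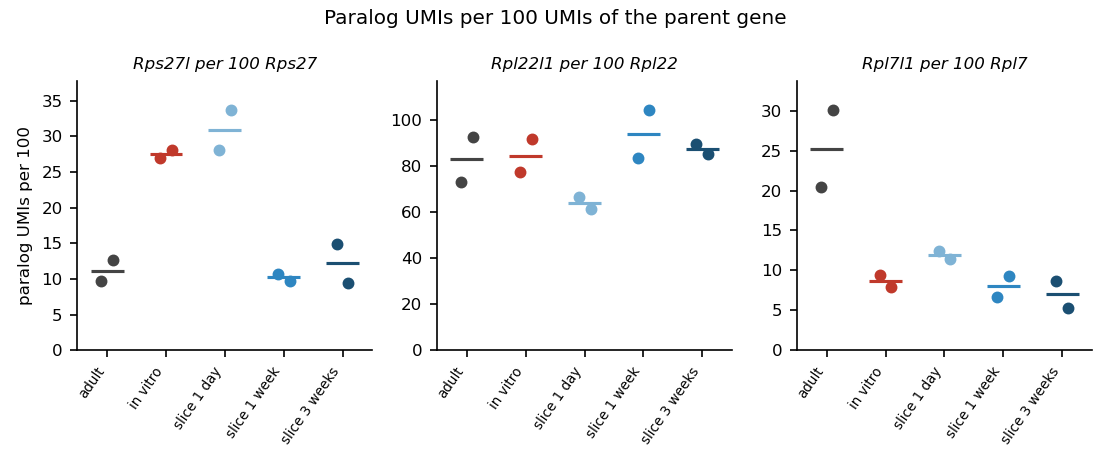
Each dot is 1 library's paralog UMIs per 100 UMIs of the parent gene and each line the mean of 2 libraries. *Rps27l* is between 26.97 and 33.7 *in vitro* and in slice 1 day and at 14.96 or below elsewhere, and *Rpl7l1* is at 20.4 and 30.1 in adult and at 12.5 or below elsewhere.

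Of the 8 parent genes, *Rps27* and *Rpl3* departed downward in slice 1 day, as given above. *Rpl6*, *Rpl7*, *Rpl10*, *Rpl22*, *Rpl39* and *Rps4x* were called higher than adult in all 4 comparisons (log2 0.98 to 2.03), and no departure was called for these 6 in those comparisons.

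The tissue-biased paralogs were rare. *Rpl10l* had 1 UMI, in *in vitro* replicate 2, and no test; in adult a count of 0 over the group allows up to 0.156 CPM of the raw library total (3 UMIs). *Rpl39l* had 38 and 11 UMIs in adult, 68 and 81 *in vitro*, 7 and 84 in slice 1 day, 1 and 1 in slice 1 week, and 23 and 60 in slice 3 weeks. Its levels overlapped between groups (0.988 to 8.66 CPM), and no level change was called. Its *in vitro* change relative to the family, -1.24 ± 0.54 (adjusted p = 0.0455, edgeR), was lost under 10 of the 20 alternatives and was 0.42 in cells of 3000 to 8000 UMIs.

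*Rpl3l* had 0 and 0 UMIs in adult, 7 and 8 *in vitro*, 32 and 45 in slice 1 day, 2 and 0 in slice 1 week, and 1 and 3 in slice 3 weeks. Slice 1 day held 5.83 CPM of the raw total, at least 37.3-fold higher than the adult floor of 3 UMIs over the group, and *in vitro* at least 1.3-fold higher. The slice 1 day difference was called by edgeR (adjusted p = 8.9e-05), and relative to the family under all 20 alternatives. *Rpl3l* passed the filter on low counts only through slice 1 day, the group where it is high, so these calls lend the difference no support. The *in vitro* and slice 1 week differences were called at adjusted p = 0.0343 and 0.0274, the latter on 2 UMIs. Each of these 2 was lost without either adult library, without neutrophil-rich and erythroid-rich cells, with the study label and with the title code as a term. The *in vitro* call was also lost without either *in vitro* library and in cells of 3000 to 8000 UMIs, and the slice 1 week call without slice 1 week replicate 1. From slice 1 day to slice 3 weeks *Rpl3l* fell (adjusted p = 6.7e-04, edgeR), a call lost with the title code. The limit from the filter holds for this call too. In slice 1 day 12 of the 32 and 30 of the 45 UMIs lay in neutrophil-rich or erythroid-rich cells, which held 5.15% and 8.13% of the libraries' UMIs. That is 63.7 and 38.7 CPM in those cells against 5.76 and 1.71 in the others. *Rpl3l* starts 5890 bases past the end of *Rps2* on the same strand of chromosome 17 (GRCm38, GENCODE annotation).

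*Rpl6l*, *Rpl15* and *Rpl27* were lowest in 3 libraries that share a label. The titles of 8 libraries end in a code of a letter and a digit, whose meaning the labels do not give. The digit is 1 in both *in vitro* libraries and in slice 3 weeks replicate 2, and 7 in 5 others, while adult replicate 1 and slice 3 weeks replicate 1 have no code and carry another study label than the other 8. The portion of *Rpl15* was 80.8 and 79.0 in adult, 43.9 and 39.2 *in vitro*, 78.9 and 84.8 in slice 1 day, 96.9 and 101 in slice 1 week, and 83.8 and 39.6 in slice 3 weeks. The 3 libraries with the digit 1 were the 3 lowest. They also held the most UMIs, 33957132 and 39689540 *in vitro* and 22332658 in slice 3 weeks replicate 2, against at most 12388843 in the others. The part of depth in this pattern was not tested. *Rpl27*, also of the large subunit, had 54.96, 51.95 and 47.5 in those 3 libraries and 69.9 to 92.2 in the other 7 (*Rpl27* was named for its low change in slice 3 weeks against slice 1 day).

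*Rpl6l*, annotated by GENCODE as a processed pseudogene with a single exon at chr10:111125851-111126721 (GRCm38), had 31.5 and 25.3 UMIs per 100 UMIs of *Rpl6* in adult, 14.4 and 11.5 *in vitro*, 37.5 and 36.6 in slice 1 day, 55.8 and 56.6 in slice 1 week, and 31.7 and 12.9 in slice 3 weeks. Again the libraries with the digit 1 were lowest. The level of *Rpl6l* was higher than adult in slice 1 day, 1 week and 3 weeks (log2 1.76, 2.46 and 1.07). The summed UMIs of 16 ribosomal protein pseudogenes per 100 UMIs of their 13 parents were 14.8 and 10.7, 7.54 and 5.97, 18.1 and 17.4, 33.1 and 30.2, and 14.6 and 6.77 in the same order. Of 14 such copies with at least 100 UMIs, 14 were higher per parent in slice 3 weeks replicate 1 than in replicate 2, a count chosen after the values were seen. Reads that match near-identical copies equally cannot be placed with certainty, so the values of *Rpl6l*, of the pseudogenes and of their parents are uncertain. The parents include *Rps2*, *Rps26*, *Rpl13* and *Rpl6*, described above. Per 100 UMIs of *Rps26* its copy *Rps26-ps1* had 19.6 and 13.7 in adult, 11.1 and 9.39 *in vitro*, 25.9 and 23.1 in slice 1 day, 50 and 45.1 in slice 1 week, and 19.3 and 12.1 in slice 3 weeks. The copy of *Rpl13* had 2.35 to 28.3 per 100 UMIs of its parent in the 10 libraries, and that of *Rps2* at most 1.36.

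**Figure D4:**
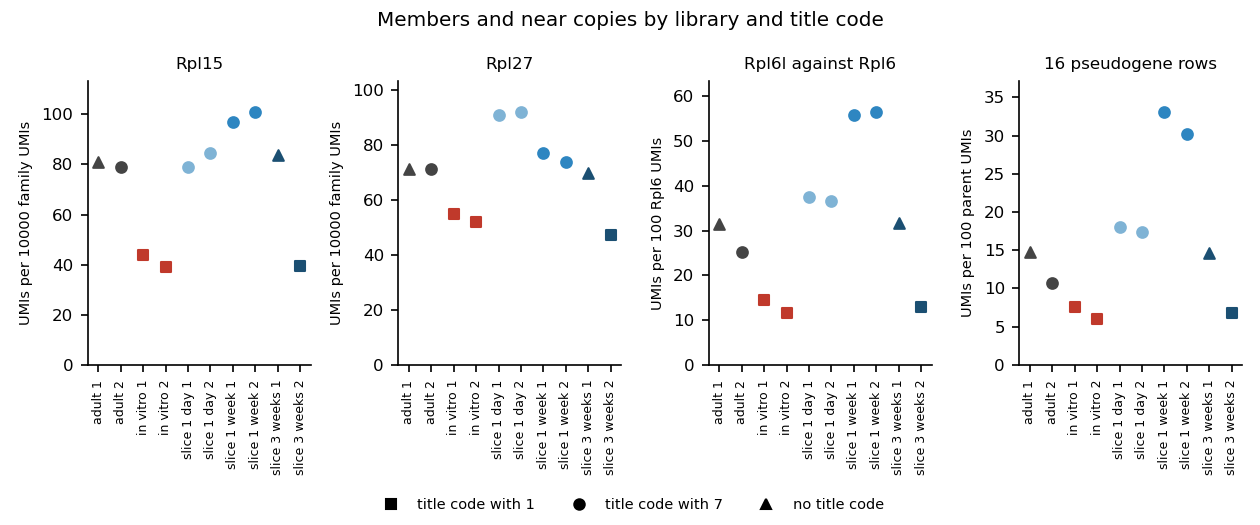
Each point is 1 library, with its shape giving the digit of the title code. The 3 squares (digit 1) are lowest for *Rpl15*, *Rpl27*, *Rpl6l* per 100 *Rpl6* and the 16 pseudogenes per 100 parent UMIs, and the 2 slice 3 weeks libraries differ in each. The libraries drawn as squares also held the most UMIs.

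*Rpl15* changed relative to the family by -0.98 ± 0.29 *in vitro* against adult (adjusted p = 0.00597, edgeR), which was lost without *in vitro* replicate 2, and the change was 0.11 with the title code as a term. *Rpl6l* changed by -1.19 ± 0.34 *in vitro* (0.00474), against -0.03 with that term, and by 0.93 ± 0.34 in slice 1 week (0.0223), lost without adult replicate 2 or either slice 1 week library (0.78 at the lowest). With the title code as a term, added after seeing the data, 33 of the 77 canonical members rather than 75 were called higher *in vitro* than in adult. Code and condition overlap in part: both *in vitro* libraries carry the digit 1, and the term rests on the differences between the 2 adult and between the 2 slice 3 weeks libraries.

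Between *in vitro* and slice 3 weeks microglia, both 3 weeks in culture, no canonical member was called higher and 6 were lower (13.3% of all genes higher, 19.9% lower). They included *Rpl13*, *Rpl15*, *Rpl21* and *Rpl35* of the large subunit and *Rps6* of the small. *Rpl13* had 2541 and 2699 CPM *in vitro* and 3265 and 5290 in slice 3 weeks (log2 change -0.71, adjusted p = 0.0178). *Rps6* had 1687 and 1871 against 2192 and 3470 (-0.67, adjusted p = 0.0235, edgeR). For these 5 genes the *in vitro* values were below both slice values, and the 2 slice libraries differed from each other in each gene. The count was 0 without either *in vitro* library, 26 without slice 3 weeks replicate 1, 1 without slice 3 weeks replicate 2 and 3 without either slice 1 week library. It was 41 with the title code as a term, 13 with library size alone and 10 without proliferating cells. The canonical median of -0.34 became 0.052 without slice 3 weeks replicate 2. At an unadjusted p under 0.05, 0 canonical members were higher and 19 lower, and DESeq2 called 0 and 8.

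No canonical member departed from the family between *in vitro* and slice 3 weeks (14% of all genes higher, 9.47% lower). At an unadjusted p under 0.05, 2 were higher and 0 lower, and DESeq2 called 0. Without slice 3 weeks replicate 2, 1 was lower. *Rpl28* came nearest upward (0.54, adjusted p = 0.0852) and *Rpl15* downward (-0.58, adjusted p = 0.16, edgeR). Of the paralogs, *Rps27l* was higher in level and *Rpl6l* lower (-0.97, adjusted p = 0.0153). The latter was lost without either *in vitro* library or slice 3 weeks replicate 1 (-0.48).

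From slice 1 day to slice 3 weeks 1 canonical member was higher and none lower (13.9% of all genes higher, 12.8% lower). At an unadjusted p under 0.05, 7 were higher and 2 lower, and DESeq2 called 2 and 0. Relative to the family 1 canonical member was higher and 1 lower, where 5.14% of all genes were higher and 7.61% lower. *Rps2* was the lower one (-0.67, adjusted p = 0.0363, edgeR), a call lost under 12 of the 20 alternatives. The number of departures was 6 without slice 3 weeks replicate 1, and 0 without slice 3 weeks replicate 2 or without any single *in vitro*, slice 1 day or slice 1 week library. DESeq2 called 0 higher and 2 lower, and at an unadjusted p under 0.05 edgeR gave 3 and 5. Without slice 3 weeks replicate 1 the level count became 21 higher and 1 lower, without replicate 2 0 and 3, without either adult library 3 and 0, and without either slice 1 day library 0. With the title code as a term it was 0 higher and 23 lower, which turned the canonical median from 0.135 to -0.55. *Rps27* and *Rps29* were among the 3 highest log2 fold changes (0.63 and 0.63), and *Rps2*, *Rpl27* and *Rps26* were the 3 lowest (-0.53, -0.52 and -0.45).

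Members took a smaller part of the UMIs in neutrophil-rich cells than in other cells of the same library. In slice 1 day such cells were 13.1% and 11.2% of cells, with a median members' share of 6.59% and 5.65% against 16.2% and 16.7% in the rest. In slice 1 week they were 16.9% and 1.64%, with 5.11% and 7.81% against 16% and 16.7%, where the class in replicate 2 was 1 cell. In proliferating cells the median share was 19.2% and 17.3% against 14.25% and 14.99% in the rest in slice 1 day, and 12.04% and 12.96% against 11.62% and 12.38% *in vitro*. The slice 1 day proliferating cells were deeper, with medians of 9267 and 11414 UMIs against 5917 and 6732. Over all cells of these 2 libraries the share correlated with log2 UMIs (r = 0.33 and 0.25), and the part of depth was not tested. In adult, with 17 and 11 proliferating cells, their median share was 7.01% and 5.05% against 6.81% and 5.53%. The share of proliferating cells was lower than in the rest in slice 1 week, with 14.45% and 14.23% against 15.73% and 16.75%. It was also lower in slice 3 weeks, with 12.97% and 18.51% against 13.63% and 19.04%.

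Other genes of translation were read from 4 lists. Of 5 further ribosomal genes in the tables, 3 were higher *in vitro* than in adult (22.4% of all genes), 5 in slice 1 day (24.9%), 5 in slice 1 week (15%) and 4 in slice 3 weeks (17.9%). *Fau*, a ubiquitin-like fusion of small subunit protein eS30, gave 1339 and 929 CPM in adult and 2468 to 4697 in the other 8 libraries. *Gnb2l1*, which encodes the small subunit scaffold RACK1, gave 189 and 128 in adult and 487 to 804 elsewhere. *Rpl36al* rose in all 4 (log2 1.02 to 1.57). *Rps27rt*, a near copy of *Rps27*, gave 372 and 238 in adult, 380 and 341 *in vitro* (379.8 in the first), 683 and 571 in slice 1 day, 2042 and 1722 in slice 1 week, and 634 and 628 in slice 3 weeks, highest in the same libraries as the pseudogenes.

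Of 17 other messengers known to carry the TOP motif, 13 were higher and 1 lower *in vitro*, 16 and 1 in slice 1 day, 15 and 1 in slice 1 week, and 15 higher in slice 3 weeks. All of the higher counts were above the shares over all genes (22.4%, 24.9%, 15% and 17.9%) and the lower counts below them (28.5%, 25.3% and 13.6%), with median log2 fold changes of 1.05, 1.08, 1.36 and 1.19. *Tpt1*, the translationally controlled tumour protein, gave 492 and 336 CPM in adult, 1959 and 2323 *in vitro*, and 1153 to 1716 in the slice groups, so that *in vitro* was the highest. It changed by 2.37 *in vitro* and 1.66 in slice 3 weeks against adult (adjusted p = 6.4e-06 and 1.5e-04, edgeR). *Nap1l1*, a nucleosome assembly protein, changed by 2.03 and 1.67 (2.7e-06 and 3.3e-05), and the initiation factor gene *Eif3e* by 0.75 and 0.85. *Eif4a2*, whose product is a relative of the initiation helicase eIF4A1, was the exception: it was lower *in vitro* (-0.64, adjusted p = 0.0281), in slice 1 day (-1.05, 0.00236) and in slice 1 week (-0.82, 0.0248).

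Ribosome assembly and rRNA processing factors, 40 on the list, were mostly higher in slice 1 day and mixed elsewhere. In slice 1 day 30 were higher and 1 lower than in adult (24.9% and 25.3% of all genes), with a median log2 fold change of 0.92. In slice 1 week 4 were higher and 4 lower, in slice 3 weeks 6 and 3, and *in vitro* 7 and 5, shares below those over all genes given above, with medians of -0.05, 0.04 and -0.02. From slice 1 day to slice 3 weeks 25 fell (12.8% of all genes), with a median of -0.84 against 0.05 for all genes and 0.14 for the canonical members. *Nop2*, an rRNA methyltransferase, gave 40.9 and 41.1 CPM in adult, 39.6 and 49.97 in slice 1 day, 13.8 and 12.8 in slice 1 week, 24.97 and 21.9 in slice 3 weeks, and 14.5 and 14.99 *in vitro*. Adult and slice 1 day were alike and the other 3 groups lower (slice 3 weeks against slice 1 day -0.95, adjusted p = 0.00165, edgeR).

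*Polr1a*, the large subunit of RNA polymerase I, which transcribes the ribosomal RNA precursor, gave 23.2 and 30.3 CPM in adult, 6.23 and 4.97 *in vitro*, 14.7 and 18.3 in slice 1 day, 16.8 and 7.68 in slice 1 week, and 13.6 and 13 in slice 3 weeks. Every cultured library was below both adult libraries. Its change was -2.25 *in vitro* (adjusted p = 1.9e-05) and -1.003 in slice 3 weeks (0.00577, edgeR), opposite in direction to the members. *Nsa2*, a large subunit assembly factor, rose by 1.33 and 1.64 (8.6e-04 and 5.1e-04), *Nop10* of the H/ACA particles by 1.25 *in vitro* and *Rrp12* by 1.19 in slice 3 weeks.

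**Figure D5:**
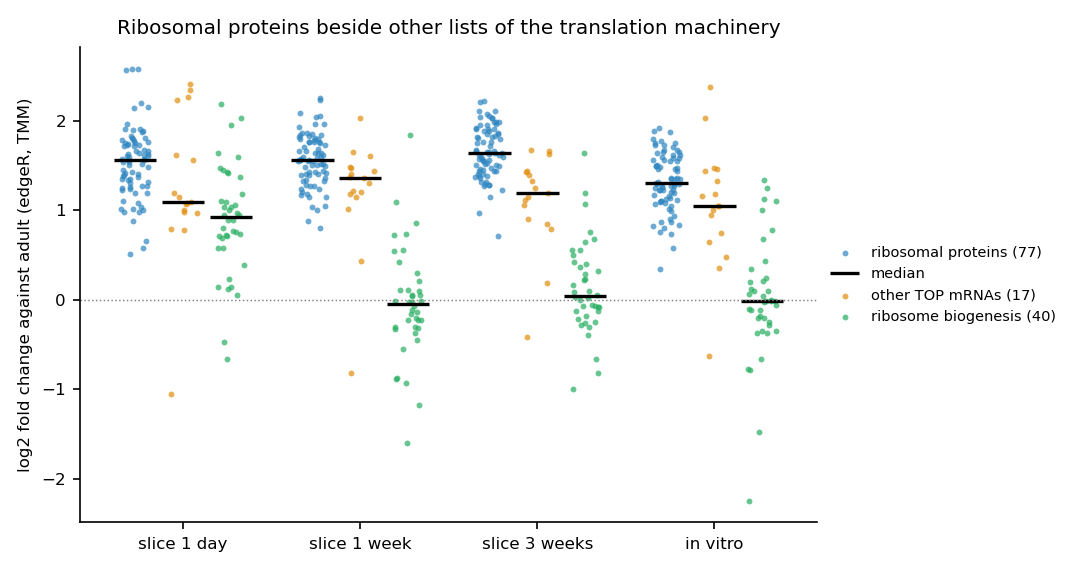
The log2 fold change against adult (edgeR, TMM scaling) is plotted per gene for 77 canonical members, 17 other TOP messengers and 40 ribosome biogenesis genes, with black lines at the medians. The biogenesis median is 0.92 in slice 1 day and between -0.05 and 0.04 in the other 3 groups, where the members' medians stay at 1.301 to 1.64.

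Of 20 genes of the mTOR pathway, LARP proteins and MYC, 6 were higher and 3 lower *in vitro*, 3 and 3 in slice 1 day, 1 and 1 in slice 1 week, and 1 and 2 in slice 3 weeks. Over all genes 22.4% were higher and 28.5% lower *in vitro*, 24.9% and 25.3% in slice 1 day, 15% and 13.6% in slice 1 week, and 17.9% and 17.5% in slice 3 weeks, and all of the list's counts but the higher one *in vitro* were below these shares. *Rptor*, the scaffold of mTOR complex 1, gave 56.5 and 48.2 CPM in adult and 10.4 to 26.8 in the other 8 libraries, a change of -2.30 *in vitro* and -1.05 in slice 3 weeks (adjusted p = 5.6e-06 and 0.00176, edgeR). *Myc*, a transcription factor known to drive ribosome synthesis, gave 18.5 and 53.1 in adult, 6.78 and 4.99 *in vitro*, and 25.7 to 56.4 in the slice libraries, lowest *in vitro* (-2.58, adjusted p = 3.4e-04). *Eif4ebp1*, an mTOR substrate that holds back cap-dependent translation, gave 50.8 and 59.1 in adult and 115 to 273 in the other 8, rising by 1.10 *in vitro* and 1.76 in slice 3 weeks (5.7e-04 and 7.7e-05). *Lamtor2*, part of the lysosomal anchor of mTOR, rose *in vitro* (1.49, 6.2e-05), and *Deptor*, an mTOR inhibitor, was lower in slice 3 weeks (-1.17, 0.0069).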

How the data were processed

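Single-cell libraries of sorted mouse microglia were analysed. The deposited files hold raw UMI counts per gene and cell, 1 table per library, which the authors made with the Cell Ranger pipeline (version 1.3.0 and mm10 per the submitters' processing notes); the annotation is not given in the sources used here. Groups and replicate numbers came from the sample titles. Barcodes were kept with the limits of the study on cells: at most 5% mitochondrial UMIs, at least 400 genes and at most 30000 UMIs. This left 19059 of 19637 barcodes, with more cells than the study counted as microglia in slice 1 week and in some other libraries. No doublet caller was run. Counts were summed per library, since cells are not replicates, and a symbol missing from a library's table was counted as 0.

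Summed counts of all 10 libraries were fitted together in edgeR 4.0.16 (R 4.3.3) with the quasi-likelihood test, TMM scaling, filterByExpr with a minimum of 10 counts and Benjamini-Hochberg adjustment over 12157 genes. Departures were fitted on the same counts with median-of-ratios scaling over the 77 canonical members. The biological coefficient of variation was 18.3% and 24.8%, with 5 residual degrees of freedom. The fits were tested on simulated data. Alternatives were DESeq2 1.42.0, other scalings, filters and cell subsets, a replicate block, the study label as a term, and leaving out each library. Same-numbered libraries of different groups deviated with correlations of -0.135 to 0.123. The value was 0.074 for adult and slice 3 weeks, whose replicates 1 share a study label. Low correlations cannot exclude a pairing, and the labels name none. Depth differed by over 100 times between libraries in total UMIs, but every canonical member had at least 250 UMIs in each library.

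The members and lists were chosen with earlier results of these data known. Members were named as the 3 highest and 3 lowest changes among canonical members and among called departures in each comparison, members departing in 2 or more comparisons against adult, the paralogs with their parents, the stalk genes, *Rpsa*, *Rps27a* and untested members. List genes were the 2 highest and 2 lowest called in slice 3 weeks and *in vitro*. *Rpl12*, *Rpl21*, *Rpl35*, *Rps6* and *Rpl7a* were named after their values were seen. Start windows came from RefSeq promoters (GRCm38.p6). Some members are counted in the totals but not reported here by name.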

Additional observations from a re-analysis of the deposited data

How the results depend on the processing

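The counts of canonical members higher than adult kept within 1.5 times under every alternative except the title code as a term (33 *in vitro*). Leaving out 1 library at a time gave 73 to 77 *in vitro*, 74 to 76 in slice 1 day, 76 to 77 in slice 1 week and 76 to 77 in slice 3 weeks. Departures then numbered 1 to 8 *in vitro*, 6 to 13 in slice 1 day, 2 to 8 in slice 1 week and 2 to 5 in slice 3 weeks. The counts for *in vitro* against slice 3 weeks were 0 to 26 (departures 0 to 1), and those for slice 3 weeks against slice 1 day 0 to 22 (departures 0 to 6). The percent of UMIs in members was 5.71% to 7.05% in adult, 12.2% to 12.99% *in vitro*, 15.99% to 16.04% in slice 1 day, 15.2% to 16.4% in slice 1 week and 13.9% to 20.3% in slice 3 weeks. The ratio of large to small subunit UMIs was 1.371 to 1.41, 1.292 to 1.302, 1.342 to 1.346, 1.335 to 1.359 and 1.342 to 1.352.

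For *in vitro* against slice 3 weeks the canonical calls numbered 1 in cells of 3000 to 8000 UMIs, 13 with library size alone, 3 with no filter on low counts, 41 with the title code and 10 without proliferating cells. For slice 3 weeks against slice 1 day they numbered 2 with DESeq2, 3 (1 higher, 2 lower) with library size alone, 4 with no filter, 4 with the study label, 23 lower with the title code, 3 without proliferating cells, and 3 lower without slice 3 weeks replicate 2. Departures numbered 1 *in vitro* in cells of 3000 to 8000 UMIs, 7 and 8 in slice 1 week with the study label and the title code, and 4 in slice 3 weeks with the title code. From slice 1 day to slice 3 weeks they numbered 0 in cells of 3000 to 8000 UMIs, 0 with no filter, 1 with the study label, 1 with summed member UMIs as library size and 6 with the title code. The cause was not tested.

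Without slice 3 weeks replicate 2 the median log2 fold change of canonical members was 0.052 *in vitro* against slice 3 weeks and -0.161 in slice 3 weeks against slice 1 day. Without replicate 1 the medians were -0.519 and 0.412, and with the title code the latter was -0.55. With the title code *in vitro* against adult, *Rps27* changed by -0.068 in level and *Rpl15* by 0.113 relative to the family. *Rpl39l* changed by 0.42 in cells of 3000 to 8000 UMIs. For the percent of UMIs in members, slice 1d (slice 1 day) gave 14.7% in cells of 3000 to 8000 UMIs, 16.6% without neutrophil-rich and erythroid-rich cells, 15.2% without proliferating cells and 15.75% as the median over cells. The subunit ratio was 1.33, 1.35 and 1.33 under the first 3 of these (1.334, 1.349 and 1.335), and *in vitro* 1.275 in cells of 3000 to 8000 UMIs and 1.288 without proliferating cells.

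The replicate number as a block changed no call count in level (75, 75, 77 and 77 against adult). It left 0 departures from slice 1 day to slice 3 weeks in place of 2, and the labels name no pairing by number. Removing every cell with 2 UMIs of another cell type's list or of the proliferation list could not be fitted, because it left 31 and 29 cells *in vitro*, 47 and 0 in slice 1 day and 0 and 28 in slice 1 week. The alternatives without neutrophil-rich cells, without proliferating cells and with the title code were chosen after seeing the data. Depth limits the rare paralogs, where slice 1 week allows up to 2.05 CPM at a count of 0. The floors cover counting error only, while each SE comes from the fit and its spread between libraries.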
